A study of Mus musculus with 22 samples.

Results

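Phlda2, Gabra3, Sertad4 and Mn1 are 4 of the 17 genes whose signal differed between Trim24-/- and wild-type (WT) mouse livers in the same direction both at 5 and at 14 weeks of age, out of 18194 genes measured. They were chosen by those measured differences, together with how their signal stood when 1 Rara allele was also missing, so all differences of the 4 genes below are a description and carry no test. All 5 probe sets annotated to the 4 genes were examined, 2 for Gabra3 and 1 for each of the others. Across the 4 genes the Trim24-/- Rara+/- livers ranged from a signal no higher than in WT (Phlda2), through one between both other groups (Sertad4), to one like that of Trim24-/- livers (Gabra3 and Mn1).

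The series asked whether the loss of Trim24 acts on the liver through Rara. RNA from the liver of 1 animal was hybridised to each of 22 Affymetrix arrays. The 5 groups were Trim24-/- Rara+/- at 5 weeks (4 animals, both Trim24 alleles disrupted and 1 Rara allele deleted), Trim24-/- at 5 weeks (4 animals, both Rara alleles intact), WT at 5 weeks (4 animals), Trim24-/- at 14 weeks (5 animals) and WT at 14 weeks (5 animals). All came, according to the design text, from intercrosses of Trim24+/- Rara+/- parents on a mixed background of C57BL/6 (60%) and 129/Sv (40%). The disruption was in the germ line, so every cell type of the liver carried it, and there were no Rara+/- livers with intact Trim24. Animals of 5 weeks are named here by the number in their label, and those of 14 weeks are given in 1 fixed order within each group.

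Trim24 encodes a tripartite motif co-regulator that binds nuclear receptors, among them retinoic acid receptor alpha, the product of Rara, and holds down its activity. Retinoic acid receptors pair with retinoid X receptors on DNA and switch target genes according to whether retinoic acid is bound. Phlda2 is an imprinted gene expressed from the maternal chromosome that encodes a pleckstrin homology domain protein known for limiting growth of the placenta. Gabra3 encodes a subunit of the GABA-A receptor, a chloride channel best known from neurons. Sertad4 belongs to the SERTA domain family, whose other members act on E2F-driven transcription. Mn1 encodes a transcriptional co-activator, and human MN1 has been described as working together with retinoic acid receptors and the histone acetyltransferase p300.

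Because the comparison turns on a retinoic acid receptor, the promoter windows of the members are shown with the receptor's binding hexamers in capitals. Each window runs from 250 bases before to 50 after an annotated start, from RefSeq on GRCm38.p6, read 5′ to 3′ along the gene. The hexamers searched were AGGTCA and GGGTCA and AGTTCA and GGTTCA on both strands, with TATAAA and the interferon response core GAAANNGAAA as further motifs, also on both strands and in capitals where found. The table held 1 window for Phlda2 (chr7:143502475-143502774, minus strand), 2 for Sertad4 (chr1:192855703-192856002 and chr1:192851698-192851997, minus strand) and 2 overlapping ones for Gabra3, the first of which is shown (chrX:72656870-72657169, minus strand). Mn1 is named only.
Phlda2: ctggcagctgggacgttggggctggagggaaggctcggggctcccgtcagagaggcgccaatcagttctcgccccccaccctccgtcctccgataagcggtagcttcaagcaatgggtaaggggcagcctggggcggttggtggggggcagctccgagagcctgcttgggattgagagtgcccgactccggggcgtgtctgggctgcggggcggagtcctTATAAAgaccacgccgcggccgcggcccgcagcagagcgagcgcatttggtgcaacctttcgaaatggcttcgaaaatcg
Sertad4, first window: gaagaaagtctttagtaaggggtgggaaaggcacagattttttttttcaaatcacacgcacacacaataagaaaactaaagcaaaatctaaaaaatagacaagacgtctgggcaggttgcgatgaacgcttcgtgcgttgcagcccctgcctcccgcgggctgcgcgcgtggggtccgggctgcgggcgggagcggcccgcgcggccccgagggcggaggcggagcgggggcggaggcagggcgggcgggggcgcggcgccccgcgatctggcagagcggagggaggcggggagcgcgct
Sertad4, second window: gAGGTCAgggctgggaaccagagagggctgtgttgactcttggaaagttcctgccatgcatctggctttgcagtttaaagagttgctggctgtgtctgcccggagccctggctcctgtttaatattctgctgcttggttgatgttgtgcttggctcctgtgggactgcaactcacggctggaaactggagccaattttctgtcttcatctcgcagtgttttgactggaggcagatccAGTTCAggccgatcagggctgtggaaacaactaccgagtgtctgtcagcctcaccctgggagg
Gabra3, first window: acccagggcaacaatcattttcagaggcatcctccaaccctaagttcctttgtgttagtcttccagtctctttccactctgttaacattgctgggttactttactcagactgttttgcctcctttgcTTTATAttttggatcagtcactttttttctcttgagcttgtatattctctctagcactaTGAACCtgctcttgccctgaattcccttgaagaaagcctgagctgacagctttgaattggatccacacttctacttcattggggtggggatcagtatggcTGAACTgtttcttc
The Phlda2 window held a TATAAA whose first base is at position -30 from the start, and no receptor hexamer. The second Sertad4 window held AGGTCA at -249 and AGTTCA at -13, and the first held none of the motifs. The Gabra3 window held TGAACC at -64 and TGAACT at 36, which read as receptor hexamers on the opposite strand, and a reversed TATAAA at -123. Such short motifs are common: 43.7% of all 32851 promoter windows in the table held at least 1 of the 4 hexamers, 13.6% held TATAAA and 3.44% held the interferon core. These matches are letters in a window, and no binding was measured. In base composition the Phlda2 window (65.7% G or C, 26 CpG sites) and the first Sertad4 window (64.7%, 34 CpG sites) stood above the Gabra3 window shown (43.0%, 0 CpG sites), against a median of 52.7% and 7 CpG sites over all windows. The second Sertad4 window, which held the receptor hexamers, was near that median (54%, 5 CpG sites).

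The arrays set limits that bear on all 4 genes. The signal is linear, with a mean of 100.001 on every array after trimming, and was compared as log2(signal + 16), which understates the differences of dim genes. The median signal per array was 12.6 to 16.1 at 5 weeks and 19.7 to 25.9 at 14 weeks. By mean level the members were dim, with 21.8% of genes below Phlda2, 42.0% below Sertad4, 47.0% below Gabra3 and 50.8% below Mn1. Trim24 itself was not lower in the mutants: its brightest probe set read 400 to 473 in Trim24-/- Rara+/-, 305 to 488 in Trim24-/- and 191 to 459 in WT livers at 5 weeks, and 185 to 336 in Trim24-/- against 143 to 205 in WT livers at 14 weeks. Rara was dim, at 18.2 ± 9.97, 13.7 ± 8.45 and 12.3 ± 11.7 (SD, n = 4 each) in Trim24-/- Rara+/-, Trim24-/- and WT livers at 5 weeks. No source used here places those probes relative to the disrupted parts, and neither gene therefore checks the genotype labels. The sexes are not in the labels either. Xist, the RNA of the silenced X chromosome, read 948 to 2169 in 12 livers of 5 weeks and 13.4 to 44.5 in 10 livers of 14 weeks. The Y-linked Eif2s3y read 0.350 to 6.59 and 245 to 344. Groups of 1 age thus shared a sex-linked pattern, that of females at 5 weeks and that of males at 14 weeks. By these genes, age and sex cannot be told apart here. Within 5 weeks Xist averaged 994 in Trim24-/- Rara+/-, 1696 in Trim24-/- and 1141 in WT livers, with no overlap between the first and second group (-0.74, limma adjusted p = 0.0797) and overlap between Trim24-/- and WT (0.55, adjusted p = 0.164). Its part in the differences of the members, among them the X-linked Gabra3, was not tested. Ages are given side by side, and no difference between them was tested.

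**Figure D1:**
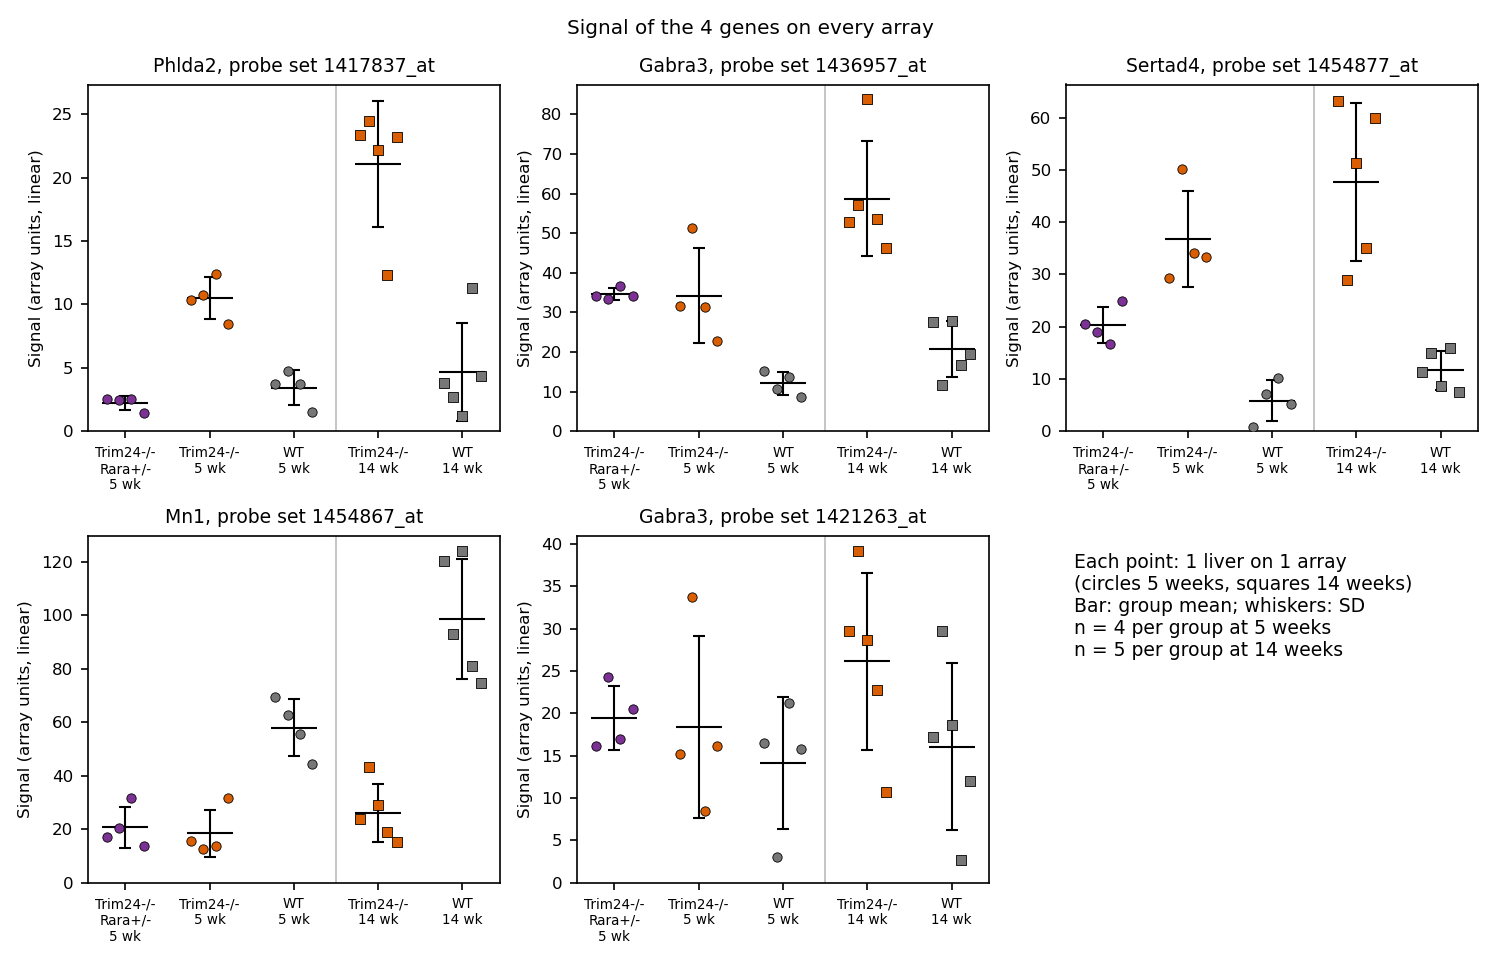
Signal of each probe set of the 4 genes (linear array units, vertical axes starting at 0) on every array, by group, with the group mean (bar) and SD (whiskers); n = 4 per group at 5 weeks and 5 at 14 weeks. Phlda2 in Trim24-/- Rara+/- livers (1.42 to 2.54) lies below every Trim24-/- liver (8.43 to 12.4), whereas Gabra3 and Mn1 overlap Trim24-/- in these livers, and the second Gabra3 probe set overlaps in all groups.

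Phlda2 had its higher signal in Trim24-/- livers, and livers that also lacked 1 Rara allele overlapped WT. At 5 weeks it read 2.54, 2.498, 2.52 and 1.42 in the Trim24-/- Rara+/- livers of animals 54, 66, 73 and 82, against 10.4, 10.8, 12.4 and 8.43 in the Trim24-/- livers of animals 1, 6, 8 and 37, and 3.75, 4.75, 3.71 and 1.54 in the WT livers of animals 2, 44, 45 and 90. Every Trim24-/- liver was above every other liver of that age, and the Trim24-/- Rara+/- and WT livers overlapped. At 14 weeks Phlda2 read 23.3, 24.5, 22.2, 12.3 and 23.2 in Trim24-/- livers against 3.81, 2.67, 1.199, 11.3 and 4.36 in WT livers. The groups did not overlap, but the lowest Trim24-/- liver and the highest WT liver lay close to each other. The Trim24-/- minus WT difference was 0.45 ± 0.09 (SE) on the log2(signal + 16) scale at 5 weeks and 0.85 ± 0.15 at 14 weeks.

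The difference of Phlda2 in Trim24-/- Rara+/- relative to Trim24-/- livers was -0.54 ± 0.09 (SE, 95% interval -0.73 to -0.34). In that comparison 0.143% of genes were called by limma, 26 in number, at an adjusted p under 0.05. Phlda2 was the 1 member among them, which is no test of it, since all 3 groups of arrays had a part in its choice. It was below that threshold in 6 of 23 alternative analyses, and leaving out single animals it was so without WT animal 90 or Trim24-/- animal 37 and not without any 1 of the other 10. Relative to WT livers the difference was -0.09 ± 0.09 (95% interval -0.28 to 0.11).

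The level of Phlda2 was at the bottom of what the arrays resolve. Genes of the Y chromosome gave a yardstick at 5 weeks, when no array had Eif2s3y above 6.59: the 9 probe sets of Eif2s3y, Kdm5d and Uty gave 108 values between 0.0772 and 14.6, with a median of 1.16. All 12 Phlda2 values at 5 weeks lay inside that range. The lowest Trim24-/- value was exceeded by 8 of the 108 Y-linked values, the median Trim24-/- value by 3, and the median Trim24-/- Rara+/- value by 38. At 14 weeks the 3 probe sets of Xist gave 30 values between 0.608 and 44.5 in place of the Y-linked genes, and all 10 Phlda2 values lay inside that range too. Its upper end came from 1 probe set: the other 2 reached at most 13.7, which 4 of 5 Trim24-/- livers exceeded in Phlda2. In bulk liver, fewer cells of a type that express a gene and less RNA per cell cannot be told apart, for this gene and the others.

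**Figure D2:**
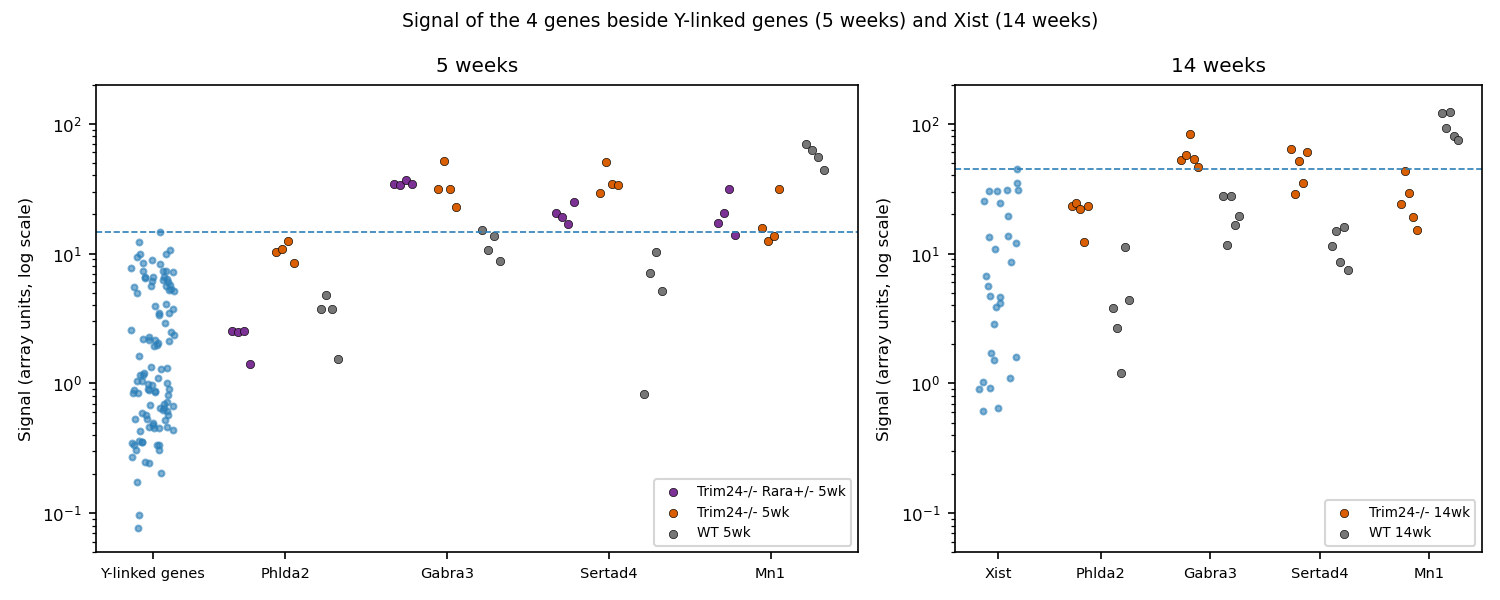
Signal of the 4 genes on every array (log axis, array units) beside the 108 values of Y-linked probe sets at 5 weeks and the 30 values of Xist probe sets at 14 weeks, with the highest such value as a dashed line. Phlda2 stays below the line in every liver, while Gabra3 and Sertad4 are above it in all 4 livers of both mutant groups at 5 weeks.

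Gabra3 in livers with 1 Rara allele overlapped Trim24-/- livers and stood above WT livers. Its brighter probe set read 34.2, 33.5, 36.7 and 34.1 in Trim24-/- Rara+/- livers (animals 54, 66, 73 and 82), against 31.5, 51.3, 31.3 and 22.9 in Trim24-/- livers (animals 1, 6, 8 and 37) and 15.3, 10.7, 13.7 and 8.69 in WT livers (animals 2, 44, 45 and 90). All 8 mutant livers were above all 4 WT livers, and the Trim24-/- Rara+/- values lay within the range of the Trim24-/- values. At 14 weeks it read 52.8, 57.2, 83.8, 53.6 and 46.2 in Trim24-/- livers against 27.6, 11.6, 27.9, 16.7 and 19.5 in WT livers. The groups again did not overlap. The Trim24-/- minus WT difference was 0.82 ± 0.15 (SE) at 5 weeks and 1.03 ± 0.16 at 14 weeks.

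Between Trim24-/- Rara+/- and Trim24-/- livers Gabra3 differed by 0.04 ± 0.15 on the log2 scale, with a 95% interval from -0.28 to 0.36. Against WT livers the difference was 0.86 ± 0.15 (0.54 to 1.17), in a comparison where 0.055% of genes were called, 10 in number, with 0 members among them. Of the WT values of Gabra3, 1 of 4 at 5 weeks was above every Y-linked value and 0 of 5 at 14 weeks were above every Xist value, so its differences are taken from a level within those ranges, while all Trim24-/- livers were above them. The upper end of the Xist range came from 1 probe set. The other 2 reached at most 13.7, and the WT values of Gabra3 at 14 weeks ran from 11.6 to 27.9.

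The second probe set of Gabra3 did not separate the groups. It read 16.1, 24.3, 16.9 and 20.5 in Trim24-/- Rara+/- livers, against 15.2, 33.8, 8.50 and 16.1 in Trim24-/- and 16.5, 3.10, 21.2 and 15.8 in WT livers at 5 weeks, in the animal order used above. At 14 weeks it read 29.7, 39.1, 28.6, 22.8 and 10.7 in Trim24-/- against 17.3, 29.7, 18.6, 2.72 and 12.04 in WT livers. The groups overlapped at both ages. In a fit of every probe set, its difference between Trim24-/- Rara+/- and WT livers was 0.27 ± 0.23, and its Trim24-/- minus WT difference was 0.18 ± 0.23 at 5 weeks and 0.41 ± 0.24 at 14 weeks. The sign was that of the brighter probe set in each case, and the raised Gabra3 signal therefore rests on 1 of its 2 probe sets.

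Sertad4 in livers with 1 Rara allele stood between the Trim24-/- and the WT livers. It read 20.4, 19.04, 16.8 and 24.85 in Trim24-/- Rara+/- livers (animals 54, 66, 73 and 82), against 29.4, 50.2, 34.0 and 33.4 in Trim24-/- livers (animals 1, 6, 8 and 37) and 0.825, 7.03, 10.2 and 5.18 in WT livers (animals 2, 44, 45 and 90). The 3 groups did not overlap, with the Trim24-/- Rara+/- livers between the others. At 14 weeks it read 63.2, 28.9, 51.3, 35.1 and 59.9 in Trim24-/- livers against 11.3, 14.9, 8.59, 15.96 and 7.43 in WT livers, in the animal order used for Gabra3, again without overlap. The Trim24-/- minus WT difference was 1.28 ± 0.15 (SE) at 5 weeks and 1.18 ± 0.17 at 14 weeks. No WT value was above the highest Y-linked value at 5 weeks (0 of 4) or the highest Xist value at 14 weeks (0 of 5), so the WT level of Sertad4 cannot be told from background and these differences depend on it. The highest Xist values came from 1 probe set. The other 2 reached at most 13.7, and the WT values of Sertad4 at 14 weeks (7.43 to 15.96) lay on either side of that.

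Sertad4 was -0.53 ± 0.15 in Trim24-/- Rara+/- relative to Trim24-/- livers (95% interval -0.86 to -0.20) and 0.75 ± 0.15 relative to WT livers (0.42 to 1.08). Groups that do not overlap were common in the data: this held for 8.46% of all genes between Trim24-/- Rara+/- and Trim24-/- livers and for 4.62% between Trim24-/- Rara+/- and WT livers. Sertad4 had this in both comparisons, Phlda2 in the first, and Gabra3 and Mn1 in the second. In Trim24-/- against WT, which the choice of the members used, 5.52% of genes did not overlap at 5 weeks and 1.78% at 14 weeks, all 4 members among them.

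Mn1 was the member with a lower signal in Trim24-/- livers, and livers with 1 Rara allele overlapped them. It read 17.1, 20.4, 31.6 and 13.9 in Trim24-/- Rara+/- livers (animals 54, 66, 73 and 82), against 15.7, 12.55, 13.7 and 31.65 in Trim24-/- livers (animals 1, 6, 8 and 37) and 69.3, 62.6, 55.8 and 44.3 in WT livers (animals 2, 44, 45 and 90). All 8 mutant livers were below all 4 WT livers, and both mutant groups held 1 liver near 32 that stood above the rest. At 14 weeks it read 23.9, 43.2, 29.1, 19.1 and 15.2 in Trim24-/- livers against 120.2, 92.8, 123.9, 81.0 and 74.6 in WT livers, in the same animal order as above, without overlap. The Trim24-/- minus WT difference was -1.13 ± 0.19 (SE) at 5 weeks and -1.46 ± 0.19 at 14 weeks.

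Between Trim24-/- Rara+/- and Trim24-/- livers Mn1 differed by 0.10 ± 0.19, with a 95% interval from -0.30 to 0.51. Against WT livers it was -1.02 ± 0.19 (-1.42 to -0.62). At 5 weeks the WT values of Mn1 were above every Y-linked value, as were 3 of 4 in Trim24-/- Rara+/- and 2 of 4 in Trim24-/- livers. At 14 weeks 0 of 5 Trim24-/- and 5 of 5 WT values were above every Xist value. The highest Xist values came from 1 probe set. The other 2 reached at most 13.7, which all Trim24-/- values of Mn1 at 14 weeks (15.2 to 43.2) exceeded.

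**Figure D3:**
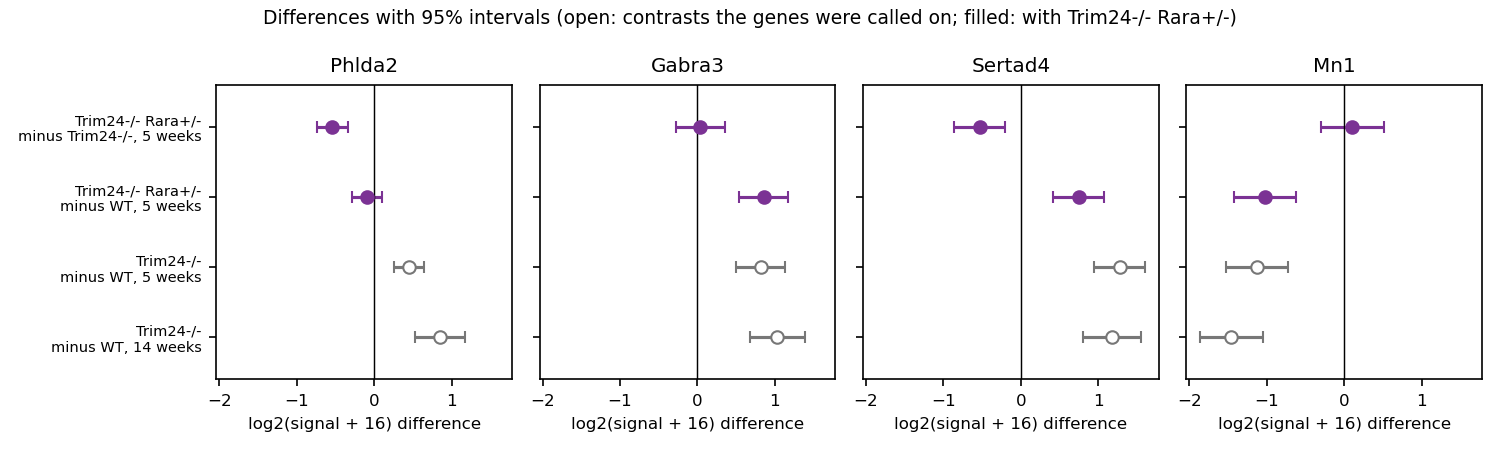
Differences on the log2(signal + 16) scale with 95% intervals from limma, for each gene in 4 comparisons; open points are the contrasts the genes were called on, and filled points, which had a part in the choice, are those with Trim24-/- Rara+/- livers. In Trim24-/- Rara+/- minus Trim24-/- livers the differences are -0.54 for Phlda2, -0.53 for Sertad4, 0.04 for Gabra3 and 0.10 for Mn1. The intervals are for differences of group means and are no test, because of that choice.

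Set out in the order of their group means, the 4 genes differed in where the Trim24-/- Rara+/- livers stood. The ages also differed in sex-linked pattern and in median array signal, so places and overlaps across ages are a description only. Overlap across ages was not compared with that of other genes. On the log2(signal + 16) scale Phlda2 was highest in Trim24-/- at 14 weeks (5.20 ± 0.21, SD), then in Trim24-/- at 5 weeks (4.73 ± 0.09), WT at 14 weeks (4.35 ± 0.25), WT at 5 weeks (4.28 ± 0.10) and Trim24-/- Rara+/- at 5 weeks (4.19 ± 0.04), with each neighbouring pair overlapping. Gabra3 ran from 6.20 ± 0.26 in Trim24-/- at 14 weeks through Trim24-/- Rara+/- (5.66 ± 0.04), Trim24-/- at 5 weeks (5.62 ± 0.33) and WT at 14 weeks (5.17 ± 0.28) to WT at 5 weeks (4.81 ± 0.15). There the first pair did not overlap and the later neighbours did. Sertad4 ran from 5.96 ± 0.36 in Trim24-/- at 14 weeks through Trim24-/- at 5 weeks (5.71 ± 0.24), Trim24-/- Rara+/- (5.18 ± 0.13) and WT at 14 weeks (4.78 ± 0.20) to WT at 5 weeks (4.43 ± 0.27). The Trim24-/- Rara+/- livers overlapped neither neighbour in that order. Mn1 ran from 6.82 ± 0.28 in WT at 14 weeks through WT at 5 weeks (6.20 ± 0.21), Trim24-/- at 14 weeks (5.36 ± 0.36) and Trim24-/- Rara+/- (5.18 ± 0.29) to Trim24-/- at 5 weeks (5.07 ± 0.34), with overlap among the 3 mutant groups and none above them.

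The share of the 5-week Trim24-/- minus WT difference that was left in Trim24-/- Rara+/- livers summarises this contrast. It was -20.0% for Phlda2, 58.5% for Sertad4, 90.7% for Mn1 and 105% for Gabra3, where 0% is the WT mean and 100% the Trim24-/- mean. With pseudocounts of 1 and 64 in place of 16 it was -28.8% and -17.9% for Phlda2, 70.0% and 51.7% for Sertad4, 88.3% and 92.6% for Mn1, and 105% and 104% for Gabra3. The order of the 4 genes was the same with each pseudocount. These shares use the arrays on which the genes were chosen, and the difference between genes was not tested. Those of Phlda2 rest on values within the Y-linked range in all 3 groups, and that of Sertad4 on WT values within it. The limit also bears on Gabra3, with 1 of 4 WT values above every Y-linked value. For Mn1 3 of 4 Trim24-/- Rara+/- and 2 of 4 Trim24-/- values were above every Y-linked value. The exact size of the shares is therefore uncertain for all 4 genes.

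The other genes called at both ages give the setting. Of all genes, 0.599% were called between Trim24-/- and WT livers at 5 weeks and 0.242% at 14 weeks, 109 and 44 in number, and 17 genes or 0.0934% were called at both ages in the same direction. Of these, 15 were higher and 2, Mn1 and the ornithine aminotransferase gene Oat, were lower in Trim24-/- livers. The share left in Trim24-/- Rara+/- livers was above 75% for 9 genes, from 25% to 75% for 6 and below 25% for 2, Phlda2 and the interferon-induced ISG15 protease gene Usp18 (8.95%). Phlda2 was also at the edge of the choice: the larger of its adjusted p values at both ages was 0.0469, as for Usp18, and the next inside was Resf1 (0.0452). Just outside were Cdc123 (0.0538), Rpp40 (0.0584) and the interferon-induced Ifi27l2a (0.0596).

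**Figure D4:**
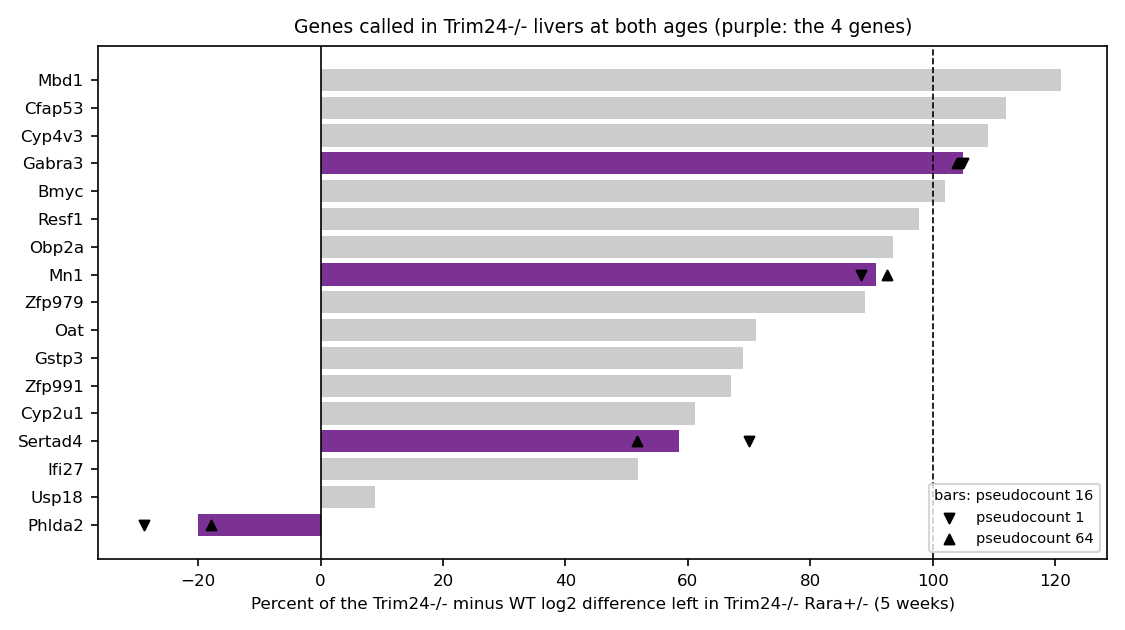
Percent of the Trim24-/- minus WT log2 difference at 5 weeks that is left in Trim24-/- Rara+/- livers, for the 17 genes called at both ages (bars, pseudocount 16; purple for the 4 genes described here; triangles for pseudocounts of 1 and 64). Phlda2 is at -20.0% and Usp18 at 8.95%, Sertad4 is at 58.5%, and Mn1 and Gabra3 are near the dashed line at 100%.

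Relatives of the members were examined from gene lists. Counts at an unadjusted p under 0.05 are given for 4 comparisons in the order Trim24-/- Rara+/- minus Trim24-/-, Trim24-/- Rara+/- minus WT, Trim24-/- minus WT at 5 weeks and the same at 14 weeks, in which 11.5%, 7.44%, 10.8% and 8.23% of all genes reached it. Of the PHLDA family, Phlda3, a p53-induced inhibitor of Akt signalling, was higher in Trim24-/- livers at 14 weeks (149 ± 59.9 against 36.8 ± 6.74, SD, n = 5 each, difference 1.58 ± 0.22, limma adjusted p = 0.0113). At 5 weeks Phlda3 read 48.6 ± 8.88 in Trim24-/- Rara+/-, 56.7 ± 27.6 in Trim24-/- and 27.9 ± 11.4 in WT livers, and was called in none of the 3 comparisons of that age (the Trim24-/- minus WT difference was 0.69, limma adjusted p = 0.278). Of Phlda1 and Phlda3, 0, 1, 1 and 1 reached an unadjusted p under 0.05, in each case Phlda3. Phlda1 was bright and variable (940 ± 352, 879 ± 451 and 1115 ± 721 in those groups) and was called in none of the 4 comparisons.

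Phlda2 lies in the imprinted domain controlled by the RNA Kcnq1ot1 on chromosome 7. Of the 15 other measured genes of that domain and its edges, limma called 0 in each of the 4 comparisons, with 0, 0, 0 and 1 (6.67%) at an unadjusted p under 0.05. They included the cell cycle inhibitor Cdkn1c, at 26.5 ± 1.32 in Trim24-/- Rara+/-, 30.2 ± 20.1 in Trim24-/- and 23.2 ± 1.499 in WT livers. The brightest was Cd81, a tetraspanin, at 2374, 2600 and 2307. Their median difference was -0.03 between Trim24-/- Rara+/- and Trim24-/- livers and -0.01 between Trim24-/- and WT livers at 5 weeks, beside -0.01 over all genes in both. Among 38 measured imprinted genes and their regulators elsewhere, 1 was called: Zfp445, a zinc finger protein that protects imprints, rose in Trim24-/- Rara+/- (1378) and Trim24-/- (1258) livers relative to WT livers (518). The differences from WT were 1.39 (limma adjusted p = 3.51e-04) and 1.24 (0.00104), and at 14 weeks Zfp445 read 1410 against 904 (0.65, adjusted p = 0.0897). Of the 38, 0, 2, 3 and 9 reached an unadjusted p under 0.05, the last being 23.7% against 8.23% of all genes. Among the 9, singled out after its values were seen, the imprinted RNA Meg3 read 182 in Trim24-/- against 64.5 in WT livers without overlap (1.25, limma adjusted p = 0.0559).

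Of the 14 other measured subunits of the GABA-A receptor, limma called 0 in each of the 4 comparisons, and 0 reached an unadjusted p under 0.05. Gabre and Gabrq, which encode the epsilon and theta subunits and flank Gabra3 on the X chromosome, read 6.42 and 2.07 in Trim24-/- Rara+/-, 6.5 and 5.55 in Trim24-/- and 5.11 and 3.28 in WT livers. The brightest, Gabrp, read 20.95, 14.4 and 21.97 in the same groups. Of 16 measured genes of GABA synthesis, breakdown, transport and receptor anchoring, 0 were called in each comparison, with 5, 2, 1 and 0 at an unadjusted p under 0.05, the first being 31.2% against 11.5% of all genes. The brightest of these was Gabarapl1, an autophagy and receptor-trafficking protein, at 3308, 3324 and 3044 at 5 weeks.

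The other 4 members of the SERTA domain family, Sertad1, Sertad2, Sertad3 and Cdca4, and 3 Trim family co-regulators (Trim24, Trim28 and Trim33) were called in none of the 4 comparisons by limma, with 0 SERTA genes and, over the 4 comparisons, 0, 1, 0 and 1 co-regulators at an unadjusted p under 0.05. In both cases the co-regulator was Trim24 itself. It read higher in Trim24-/- Rara+/- than in WT livers (0.55) and in Trim24-/- than in WT livers at 14 weeks (0.43). The SERTA differences ran from -0.14 to 0.20 between Trim24-/- Rara+/- and Trim24-/- livers and from -0.16 to 0.23 between Trim24-/- and WT livers at 5 weeks, beside -0.53 and 1.28 for Sertad4. Of 22 measured E2F, retinoblastoma and cell cycle genes, 0 were called, with 4, 0, 3 and 3 at an unadjusted p under 0.05 (18.2%, 0%, 13.6% and 13.6%, against 11.5%, 7.44%, 10.8% and 8.23% of all genes). The brightest, cyclin D1 (Ccnd1), read 546.5 in Trim24-/- Rara+/-, 522 in Trim24-/- and 688 in WT livers at 5 weeks.

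Of 12 nuclear receptors and coactivators with which MN1 has been linked in human cells, 0 were called in any of the 4 comparisons, with 2, 2, 1 and 1 at an unadjusted p under 0.05 (16.7%, 16.7%, 8.33% and 8.33%, against 11.5%, 7.44%, 10.8% and 8.23% of all genes). Rxra, which encodes the retinoid X receptor alpha, read 987 in Trim24-/- Rara+/-, 882 in Trim24-/- and 962 in WT livers. Of 13 measured retinoic acid targets and retinoid enzymes, 0 were called, with 3, 3, 4 and 2 at an unadjusted p under 0.05 (23.1%, 23.1%, 30.8% and 15.4%, against 11.5%, 7.44%, 10.8% and 8.23% of all genes). Cyp26a1, the enzyme that clears retinoic acid and a classic target of its receptors, read 91.9 in Trim24-/- Rara+/-, 26.2 in Trim24-/- and 113 in WT livers at 5 weeks, with no call. Tgm2, a transglutaminase gene and another target, ran the other way, at 675, 1159 and 633, also with no call (0.86 in Trim24-/- minus WT, limma adjusted p = 0.0799). Both were singled out after their values were seen. The brightest gene of the list, Aldh1a1, which makes retinoic acid, read 5310, 4772 and 5963.

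Interferon-response genes were examined on the same arrays. Of 25 measured, 15 were called higher in Trim24-/- than in WT livers at 5 weeks and 8 lower in Trim24-/- Rara+/- than in Trim24-/- livers. Between Trim24-/- Rara+/- and WT livers 0 were called, and at 14 weeks 1 was called higher in Trim24-/- livers. In this order 0.599%, 0.143%, 0.055% and 0.242% of all genes were called. At an unadjusted p under 0.05 were 24, 23, 1 and 17 of the 25 (96%, 92%, 4% and 68%). Of all genes 10.8%, 11.5%, 7.44% and 8.23% reached it. At 14 weeks 23 of the 25 differences were positive. The median differences of the 25 were 1.497, -1.46, 0.10 and 0.41 in the same order. Gbp6, an interferon-induced guanylate-binding protein, read 133 in Trim24-/- Rara+/-, 664 in Trim24-/- and 112 in WT livers, Psmb9, an immunoproteasome subunit, 219, 417 and 147, and Oas1a 127.5, 473 and 93.8.

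The nearest measured genes on the chromosome were compared in the same way. Of 6 neighbours of each gene, 3 on either side, limma called 0 in each of the 4 comparisons, and across all 24 neighbours 2 comparisons reached an unadjusted p under 0.05 (Gm15867 beside Sertad4 and Cryba4 beside Mn1, both in Trim24-/- Rara+/- minus Trim24-/-). Around Phlda2 on chromosome 7 the neighbours were 4933417O13Rik, Cdkn1c, Slc22a18, Nap1l4, Cars and Tnfrsf22, with differences of -0.35 to 0.18 between Trim24-/- and WT livers at 5 weeks. Around Gabra3 on the X chromosome they were Cnga2, Magea4, Gabre, Gabrq, Cetn2 and Nsdhl (-0.52 to 0.21). Around Sertad4 on chromosome 1 they were Rcor3, Kcnh1, Hhat, Gm15867, Syt14 and Utp25 (-0.05 to 0.42), and around Mn1 on chromosome 5 Chek2, Ttc28, Pitpnb, C130026L21Rik, Miat and Cryba4 (-0.20 to 0.11). The 4 genes lie on 4 different chromosomes, none of them that of Trim24 (6) or Rara (11).

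**Figure D5:**
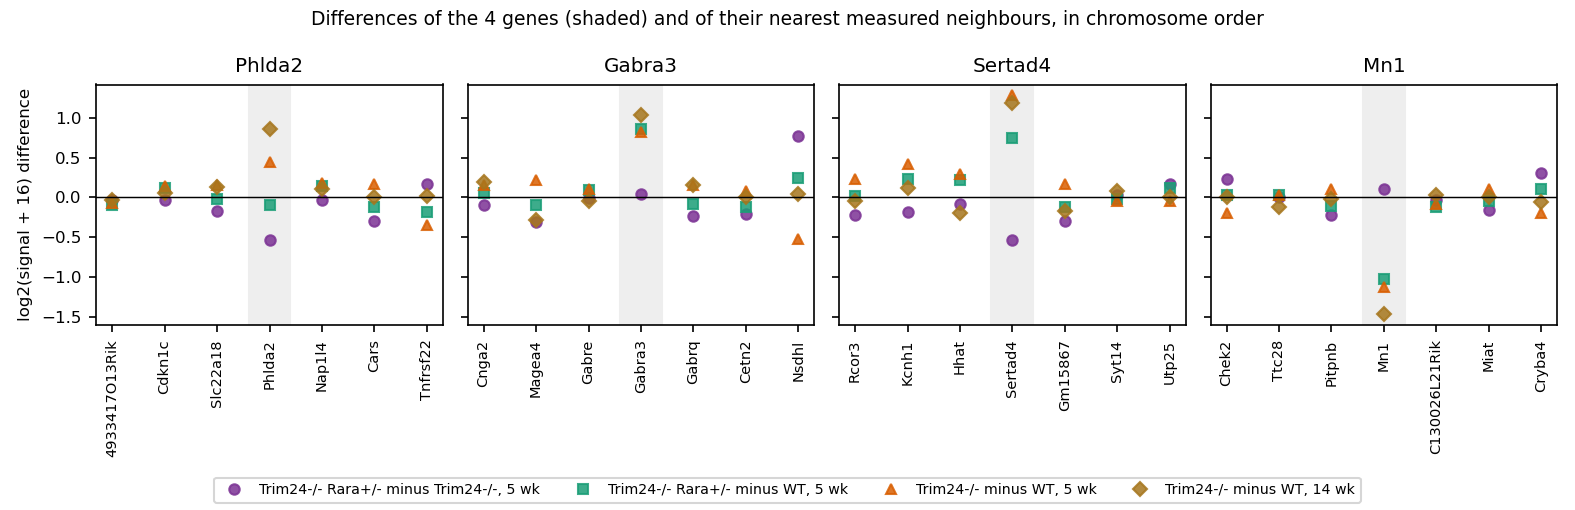
Differences on the log2(signal + 16) scale in 4 comparisons for each of the 4 genes (shaded) and the 3 nearest measured genes on either side, in chromosome order. Among the neighbours the values furthest from 0 are those of Nsdhl beside Gabra3, 0.76 in Trim24-/- Rara+/- minus Trim24-/- and -0.52 in Trim24-/- minus WT livers at 5 weeks, with no call.

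The genes whose 3 differences (both mutant groups minus WT at 5 weeks, and Trim24-/- minus WT at 14 weeks) lay nearest to those of each member were found among 11523 genes with a mean log2 level of at least 5, by the root mean square difference over these 3 values from 5 groups of arrays. Nearest to Phlda2 were Prss8 (0.06), a membrane serine protease, Arsg (0.06), a lysosomal sulfatase, Synpo (0.07), an actin-binding protein, and Trim12c (0.10). None of these 4 was called in any of the 4 comparisons. Within 0.2 of Phlda2 lay 30 genes, against 1 for Gabra3, 1 for Sertad4 and 0 for Mn1. Of the 4 members Phlda2 had the differences nearest to 0, and its own mean level (4.57) was below the limit for the genes searched. These counts therefore do not show how widely the pattern of a member was shared.

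The genes nearest to a member were found by their differences from WT, so calls of them in those comparisons are a description and no separate test. Nearest to Gabra3 was Acnat2 (0.04), a peroxisomal acyltransferase gene, then the galectin gene Lgals1 (0.20), the macrophage scavenger receptor gene Marco (0.21) and Ermp1 (0.22). Of these Ermp1, a metallopeptidase of the endoplasmic reticulum, was called in Trim24-/- against WT livers at 5 weeks (628 ± 73.3 against 311 ± 52.8, 0.98 ± 0.15, limma adjusted p = 0.0157). Acnat2 varied widely between livers of a group (244 ± 190 in Trim24-/- and 153 ± 189 in WT livers at 5 weeks, SD). Nearest to Sertad4 were Znf41-ps (0.12), Gstp3 (0.22), Ighm (0.23) and Marco (0.23). The glutathione transferase gene Gstp3 read 563 ± 85.8 in Trim24-/- Rara+/-, 763 ± 38.9 in Trim24-/- and 288 ± 98.3 in WT livers at 5 weeks and was called at both ages in Trim24-/- livers (1.42 and 1.44, limma adjusted p = 0.0146 and 2.25e-04). Nearest to Mn1 were Oat (0.28), the fatty acid transporter gene Cd36 (0.32), Klhdc4 (0.36) and Hnf4aos (0.42). Klhdc4 was called at 14 weeks (17.9 in Trim24-/- against 80.1 in WT livers, limma adjusted p = 0.0142), as was Znf41-ps (62.5 against 22.6, adjusted p = 0.0113). Oat read 2941 ± 578 in Trim24-/- Rara+/-, 2274 ± 223 in Trim24-/- and 5525 ± 1641 in WT livers.

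Markers of the cell types that a piece of liver holds were compared in the same livers. The 5 measured hepatocyte markers were bright in every group, with Apoa1, the chief protein of high-density lipoprotein, at 13680 in Trim24-/- Rara+/-, 14350 in Trim24-/- and 14810 in WT livers at 5 weeks. Over the 9 marker lists limma called 1 gene, the macrophage gene Mpeg1, higher in Trim24-/- (991) than in WT (293) livers at 5 weeks (1.69, adjusted p = 0.0275), at 392 in Trim24-/- Rara+/- livers. The summed signal of the 10 macrophage markers was 4952 to 7890 in Trim24-/- Rara+/-, 4942 to 9369 in Trim24-/- and 3501 to 7090 in WT livers at 5 weeks, and 3764 to 6847 in Trim24-/- against 3154 to 4116 in WT livers at 14 weeks. The summed signal of the 8 measured T and NK cell markers was 34.0 to 98.1, 69.8 to 200.2 and 59.7 to 74.8 in the 3 groups at 5 weeks, with Gzma at 14.8, 39.8 and 13.7. That of the 10 stellate cell and fibroblast markers was 4438 to 4940, 3900 to 7773 and 3712 to 4733, that of the 9 endothelial markers 2081 to 2315, 1362 to 2199 and 1611 to 2230, and that of the 6 markers of fetal liver and liver tumour 205 to 290.3, 129 to 417.5 and 119 to 185. These sums overlapped between Trim24-/- and WT livers at 5 weeks in each of the 5 lists. Those of fetal liver and liver tumour did not overlap between Trim24-/- Rara+/- and WT livers. Several T and NK cell markers were dim. Of the 8, 6 read below 16 on every Trim24-/- Rara+/- array, 2 on every Trim24-/- array and 5 on every WT array at 5 weeks. Among single macrophage markers 4 of 10 reached an unadjusted p under 0.05 between Trim24-/- and WT livers at 5 weeks (8 positive, median 0.22) and 7 of 10 at 14 weeks (9 positive, median 0.43), against 10.8% and 8.23% of all genes. At 14 weeks 4 of 10 stellate cell and fibroblast markers and 3 of 6 fetal liver and tumour markers did so too (medians 0.22 and 0.34). In Trim24-/- Rara+/- minus Trim24-/- livers 4 of 10 macrophage, 0 of 8 T and NK cell and 5 of 10 stellate cell and fibroblast markers were positive. So were 9 of 9 endothelial and 2 of 6 fetal liver and tumour markers. At an unadjusted p under 0.05 were 1, 2, 1, 1 and 1 of these lists, against 11.5% of all genes. Their part in the differences of Phlda2, Gabra3, Sertad4 and Mn1 was not tested.

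Neuronal markers bear on Gabra3, a gene best known from neurons. Of the 6 measured markers of neurons and nerve sheath, 5 read below 16 on every Trim24-/- Rara+/- array, 6 on every Trim24-/- array and 5 on every WT array at 5 weeks, and their summed signal was 29.2 to 41.2, 24.1 to 32.6 and 18.0 to 36.3. The brightest, the synaptic vesicle gene Syp, read 13.5, 10.3 and 15.1. These sums overlapped between the groups. The 6 cholangiocyte and ductal progenitor markers summed to 111 to 185, 115 to 349 and 101 to 142, with Prom1 at 66.04, 90.2 and 56.5, and the 3 B cell markers to 34.7 to 46.5, 54.7 to 57.8 and 21.5 to 63.2, with Cd79b at 18.5, 27.5 and 21.7. The B cell sums of Trim24-/- Rara+/- and Trim24-/- livers did not overlap, and both overlapped those of WT livers.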

How the data were processed

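Liver RNA of 22 mice was measured, 1 animal per array. Per the labels' protocols, 100 ng of RNA was amplified in 2 rounds. The authors deposited intensity values for 45101 probe sets, linear and scaled to the same mean, trimmed by 2% at each end. Software: not given in the sources used here. The annotation gave 18194 genes, each represented by its brightest probe set over 22 arrays. Promoter windows came from RefSeq GRCm38.p6.

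Groups came from sample titles. Values were tested as log2(signal + 16) with limma 3.58.1 in R 4.3.3, without covariates, and p was adjusted by Benjamini-Hochberg over all genes. Comparisons at 5 weeks used 1 fit of 12 arrays, that at 14 weeks a fit of 10. A gene was called at an adjusted p under 0.05. Differences of the members are given without p. Array number limits the precision.

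Genes were named by a rule: the members, Trim24, Rara, Xist, Eif2s3y, paralogs, 3 neighbours on either side, the 4 likest genes, and up to 4 called genes or the brightest of each list. The members and lists were chosen with earlier results of these data known. Alternatives changed the normalisation, pseudocount, probe sets, genes, weights and arrays used.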

Additional observations from a re-analysis of the deposited data

Results flagged for a closer look

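In 25 groups of arrays (5 probe sets in 5 groups), 2 arrays stood far from the rest of their group, both for Phlda2, and about 1 in 20 such groups is marked by chance. In Trim24-/- Rara+/- livers at 5 weeks, animal 82 read 1.42 where animals 54, 66 and 73 read 2.498 to 2.54, a gap of 0.964 of the group's range. The range itself is narrow, and without animal 82 the Phlda2 difference from Trim24-/- livers was -0.51. In Trim24-/- livers at 14 weeks, 1 animal read 12.3 where the other 4 animals read 22.2 to 24.5, a gap of 0.838 of the range. It was the 1 Trim24-/- liver of that age with Phlda2 below 16, near the highest WT liver at 11.3.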

How the results depend on the processing

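No paired analysis was possible because the groups share no replicate numbers. The Trim24-/- minus WT differences kept their direction in every alternative run, and their size followed the pseudocount. With pseudocounts of 1 and 64 they were 1.42 and 0.14 for Phlda2, 1.40 and 0.36 for Gabra3, 2.71 and 0.53 for Sertad4 and -1.68 and -0.57 for Mn1 at 5 weeks, and 2.17 and 0.31, 1.4999 and 0.53, 1.93 and 0.55, and -1.93 and -0.85 at 14 weeks. With the mean of its 2 probe sets Gabra3 had 0.50 at 5 weeks and 0.72 at 14 weeks.

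The Rara comparisons of the members are descriptions, and the side of the 0.05 threshold is given only to show how the fit moves. Phlda2 between Trim24-/- Rara+/- and Trim24-/- livers crossed to above it after centring on the median (-0.48), with a pseudocount of 1 (-1.83) or 64 (-0.17), over every probe set, with all 22 arrays or with these groups alone (-0.54 each), and without both WT animal 90 and Trim24-/- animal 6 (-0.53), an alternative chosen after seeing the data. Leaving out single animals gave -0.58 to -0.50. Gabra3 against WT crossed to below it with quantile normalisation (0.92), array weights (0.85), all 22 arrays or these groups alone (0.86 each) and without both animals (0.80). It also did so without Trim24-/- animal 6 or without Trim24-/- animal 37 (0.86 each), with 0.80 to 0.91 leaving out single animals. Mn1 against WT did so among genes above the median level, with all 22 arrays or without Trim24-/- animal 37 (-1.02 each). With array weights (-1.08) it did so too, and leaving out single animals gave -1.15 to -0.93. Between Trim24-/- Rara+/- and Trim24-/- livers, Gabra3 turned to -0.074 without Trim24-/- animal 37 (-0.07 to 0.19 over single animals) and Mn1 to -0.027 without Trim24-/- Rara+/- animal 73 (-0.03 to 0.27). Phlda2, Gabra3 and Sertad4 lie below the median level and have no value there. Apart from a changed number of genes or arrays, the cause was not tested.

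Counts of called genes moved more. Between Trim24-/- Rara+/- and Trim24-/- livers, 26 became 0 with a pseudocount of 1, 55 with 64, 102 above the median level, 52 with a trended prior, 325 with array weights, 101 with all 22 arrays, 5 with these groups alone, 51 without both animals and 0 to 101 leaving out single animals. Against WT, 10 became 19 above the median level, 18 with array weights, 31 with all 22 arrays, 23 with these groups alone, 28 without both animals and 6 to 22 leaving out single animals. Between Trim24-/- and WT livers, 109 at 5 weeks became 34 with a pseudocount of 1, 19 with these groups alone and 12 to 137 leaving out single animals, and 44 at 14 weeks became 28 with a pseudocount of 1, 74 above the median level, 94 with all 22 arrays and 28 to 39 leaving out single animals. Dim signal limits Phlda2 most, since every value at 5 weeks lay within the range of Y-linked probe sets.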
